A study of Mus musculus with 18 samples.

Results

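The suppressors of cytokine signalling are 8 related proteins, Socs1 to Socs7 and Cish, that switch off signals from cytokine receptors. They were studied here in mouse immune cells treated with a cell wall extract. The members were taken as every probe set, a group of short array probes for a transcript, whose annotated gene symbol is that of a family member. This gave 24 of 45101 probe sets and 8 genes, out of 18194 that the array names through single-symbol probe sets. The members were taken by gene name, but they and the gene lists below were chosen with earlier results of these data known.

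Cytokines such as IL-6, IL-10 and the interferons bind receptors that carry Janus kinases, which phosphorylate the receptor and the STAT transcription factors. STATs enter the nucleus and induce, among others, SOCS genes, whose proteins bind the receptors or kinases through an SH2 domain and recruit a ubiquitin ligase through a SOCS box. In macrophages SOCS1 is best known for limiting interferon and Toll-like receptor responses, and SOCS3 for limiting signals through gp130, the shared receptor chain of the IL-6 group of cytokines, and through the G-CSF receptor.

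Total RNA from 18 samples was measured on Affymetrix 3' expression arrays, 6 for each of the times 0 h, 1 h and 4 h. Knockout mice are mentioned in the design text of the series, while the labels name neither genotype nor strain, age, cell type, animal, batch or source of the extract, so the arrays were grouped by time. A code in each title places 2 arrays of each time in codes 44 to 54, 2 in codes 32 to 37 and 2 in codes 12 to 22. The labels do not say what these code ranges mean or whether same-time arrays are separate mice or cultures, so p-values measure the spread between these arrays, which may be technical.

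Values are signals in the arrays' own arbitrary units. A fold change is a difference of means of log2(signal + 16), given with its standard error (SE), which understates changes of dim probe sets. "Rose", "fell" and "changed" mean an adjusted p of at most 0.05 in limma's moderated test across all 25775 probe sets kept by a filter on low signal, with Benjamini-Hochberg adjustment. All 8 genes passed the filter, through 20 of their 24 probe sets. Each gene is represented by its brightest kept probe set, and levels of different probe sets were not set against each other. Of 14 macrophage markers 13 were tested, and their mean log2 value lay between 11.94 and 12.52 on every array; of 12 T cell and 8 NK cell markers 2 each were tested. In bulk RNA, fewer cells of a type and less RNA per cell cannot be told apart.

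Stretches of the RefSeq promoter windows (assembly GRCm38.p6, 250 bases before to 50 after each annotated start) are shown for 3 members whose signal was higher at 4 h, since these genes are known targets of STATs or of interferon. The windows were searched on both strands for the STAT motif TTCNNNGAA, the interferon-response core GAAANNGAA and the NF-kB core GGNNNTTCC. Capitals mark matches of the STAT and interferon-response motifs.
Cish, chr9:107296659-107296678, plus strand: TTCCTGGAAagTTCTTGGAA
Socs3, chr11:117969482-117969550, minus strand: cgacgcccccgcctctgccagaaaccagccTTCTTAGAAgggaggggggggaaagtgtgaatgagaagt
Socs1, chr16:10785575-10785649, minus strand: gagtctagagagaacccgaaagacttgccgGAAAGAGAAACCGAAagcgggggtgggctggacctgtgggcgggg

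The Cish window held 2 STAT motifs, the first of which begins at the annotated start itself. At least 1 STAT motif was found in 8.30% of 32851 such windows and at least 2 in 0.457%. The Socs3 window held 1 STAT motif, from base -154 to base -146 relative to the start. The Socs1 window held 2 overlapping interferon-response cores, from base -83 to base -69. That core stood in 8.56% of windows, with 2 or more in 0.624%. The NF-kB core, found in 18.5% of windows, had 1 match, in the Cish window. The window of Socs4, whose brightest probe set was not called in any comparison of times, held none of the 3 motifs. Windows were at hand for only 4 of the 8 members, Socs1, Socs3, Socs4 and Cish, so the others were not searched. A match is a description of the letters and not of a bound factor.

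The family changed in parts and at different times. At 1 h Socs3 rose and no other member was called. By 4 h, against 0 h, Socs1, Socs3, Socs7 and Cish rose and Socs6 fell, while Socs2, Socs4 and Socs5 were not called. Over all tested genes, 0.614% rose and 0.0341% fell at 1 h against 0 h, beside 1 member that rose and 0 that fell. Of all genes 11.5% rose and 23.9% fell at 4 h against 0 h, beside 4 members that rose and 1 that fell. One of these 4, Socs1, entered the test through its 4 h arrays alone, which leaves 3 others that rose. Between 1 h and 4 h 9.04% of all genes rose and 18.9% fell, beside 3 members, Socs1, Socs7 and Cish, that rose and 0 that fell (2 that rose without Socs1). Of all probe sets 0.753% were called in either direction at 1 h against 0 h, 33.1% at 4 h against 0 h and 24.4% at 4 h against 1 h. The members' median log2 fold change was 0.03 at 1 h against 0 h, 0.37 at 4 h against 0 h and 0.33 at 4 h against 1 h. The same median over all genes was -0.02, -0.19 and -0.17 in the same order, and with quantile normalization it was -0.02, -0.07 and -0.06, so that a small change at 4 h is relative to that shift.

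**Figure D1:**
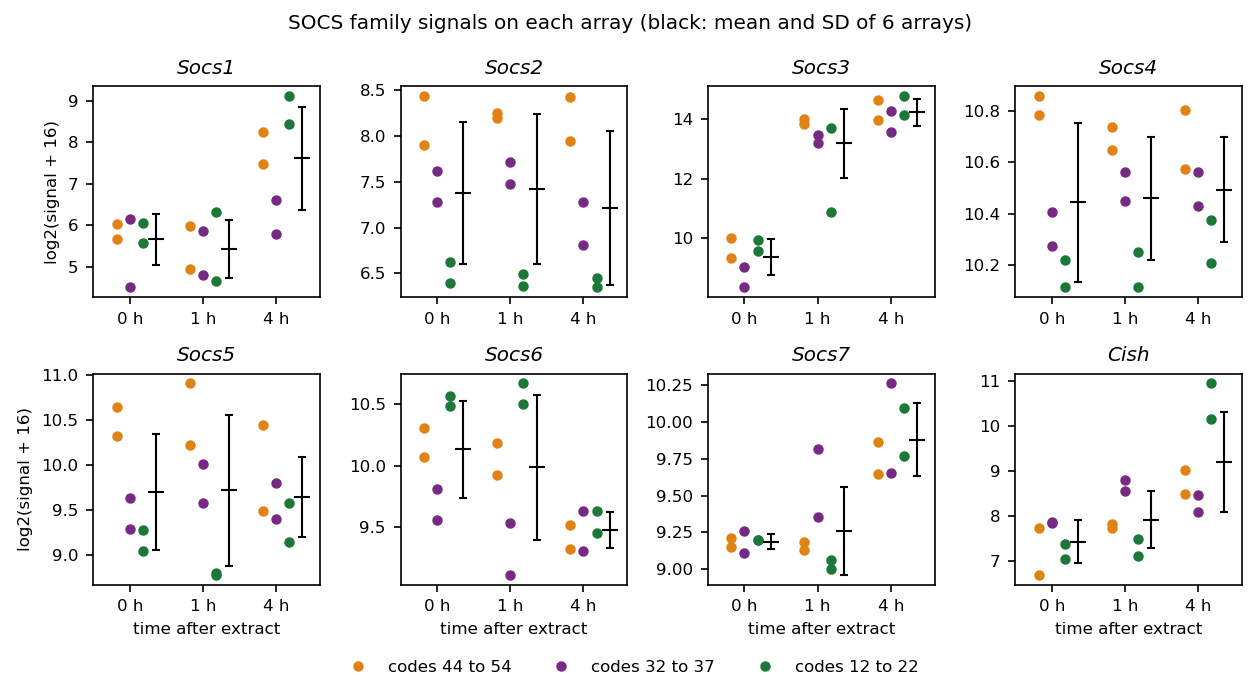
Log2(signal + 16) of the brightest probe set of each SOCS gene on each of the 18 arrays, by time after the extract; points are arrays, coloured by range of array codes, and black bars are the mean and SD of 6 arrays. Socs3 is higher at 1 h and 4 h than on every 0 h array, and Socs1 and Cish spread widely at 4 h by range. The Socs2 arrays separate by range with no overlap, and the share of all genes that do so was not counted.

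Socs3, whose protein binds gp130 and inhibits JAK1, JAK2 and TYK2, had the largest change of the family. Its signal was 310 to 1009 with a median of 688 at 0 h, 1857 to 16510 with a median of 12438 at 1 h, and 12056 to 28451 with a median of 19022 at 4 h. Every array at 1 h and 4 h lay above every array at 0 h, and the 1 h and 4 h arrays overlapped. Of all genes, 0.384% lay wholly higher and 0.264% wholly lower at 1 h than at 0 h, and 6.78% wholly higher at 4 h than at 0 h. Socs3, Socs7 and Cish were the 3 members wholly higher at 4 h than at 0 h, and no member's brightest set was wholly higher or lower at 4 h than at 1 h, as were 4.5% and 8.32% of all genes.

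The log2 fold change of Socs3 was 3.82 ± 0.43 at 1 h against 0 h (SE, n = 6 each; limma adjusted p = 0.000166), or 14.1-fold. The value at 4 h against 0 h was 4.86 ± 0.43 (adjusted p = 2.97e-07), or 29.1-fold. A two-sided exact permutation test of 6 against 6 arrays gave p = 0.00216, unadjusted, in both comparisons, the smallest value that such a test can give. The other 2 Socs3 probe sets gave 3.72 and 3.56 at 1 h against 0 h and 5.05 and 4.75 at 4 h against 0 h. One of these 2, 1416576_at, has no suffix; the "_x" in the names of the others marks probes that may bind related transcripts.

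Between 1 h and 4 h the representative of Socs3 gave 1.05 ± 0.43 (adjusted p = 0.0876) and was not called, while both other probe sets rose, by 1.33 (adjusted p = 0.0314) and 1.19 (adjusted p = 0.0305). The array with code 14, at 1 h, had a signal of 1857, while the other 1 h arrays began at 9376. Without it the change at 4 h against 1 h was 0.58 (limma adjusted p = 0.155) and that at 1 h against 0 h was 4.28 (adjusted p = 6.21e-08).

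Socs1, whose protein blocks Janus kinases directly and restrains interferon-gamma signalling, was dim at first and brighter at 4 h. The signal was 6.62 to 54.7 with a median of 42.3 at 0 h, 9.32 to 63.8 with a median of 28.5 at 1 h, and 39.1 to 542 with a median of 224 at 4 h. On every array at 0 h and 1 h it lay below that array's own median, and the 5 arrays that carried it past the filter were all at 4 h, so its test after the filter rests on the group in which it was high. The groups overlapped through 1 array of codes 32 to 37, with 39.1 at 4 h, and the other 4 h array of that range, with 82.0, was the next lowest.

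The log2 fold change of Socs1 was 1.95 ± 0.48 at 4 h against 0 h and 2.18 ± 0.48 at 4 h against 1 h (SE, n = 6 each). In the fit with no filter, in which every probe set was tested, Socs1 was called in both comparisons (limma adjusted p = 0.00818 and 0.00536). The difference at 1 h against 0 h was -0.23 ± 0.48 and was not called. The annotation gave Socs1 a single probe set, so no second reading was at hand.

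Cish, whose protein binds receptors that recruit STAT5 and is itself a classic STAT5 target, had signals of 87.7 to 218 with a median of 174 at 0 h, 124 to 428 with a median of 205 at 1 h, and 258 to 1958 with a median of 426 at 4 h. Every array at 4 h lay above every array at 0 h, and the 1 h arrays overlapped both. Cish rose by 1.77 ± 0.42 at 4 h against 0 h (log2, SE, n = 6 each; limma adjusted p = 0.00385; unadjusted exact permutation p = 0.00216) and by 1.28 ± 0.42 at 4 h against 1 h (adjusted p = 0.0349). The difference at 1 h against 0 h was 0.49 ± 0.42 (adjusted p = 1.00). The call at 4 h against 1 h was lost in 7 of the 18 fits that left out 1 array (codes 14, 16, 20, 22, 46, 51 or 54, with adjusted p 0.0505 to 0.0816). It was also lost with no filter (limma adjusted p = 0.0612). The unadjusted exact permutation p in that comparison was 0.0325.

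Socs7, whose protein binds the adaptor NCK and the insulin receptor substrates, rose modestly. Its signal was 535 to 598 with a median of 571 at 0 h, 497 to 885 with a median of 556 at 1 h, and 785 to 1214 with a median of 886 at 4 h. The 0 h arrays lay close together and all 4 h arrays stood above them, while 1 of the 1 h arrays, at 885, reached the 4 h level. The rise was 0.69 ± 0.14 at 4 h against 0 h (log2, SE, n = 6 each; limma adjusted p = 0.00122) and 0.62 ± 0.14 at 4 h against 1 h (adjusted p = 0.00401). Of its other tested probe sets, 1434834_at rose by 0.55 at 4 h against 0 h (adjusted p = 0.0335), while 1420766_at, a dim set, gave -0.08. The unadjusted exact permutation p of the brightest set at 4 h against 0 h was 0.00216. With the mean of the 3 tested sets in place of the brightest, Socs7 was not called at 4 h against 0 h (0.39, adjusted p = 0.121) or at 4 h against 1 h (0.23, adjusted p = 0.405).

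Socs6, whose protein is known to bind the receptor KIT and the insulin receptor pathway, was the only member called lower at a later time, by its brightest probe set. Its brightest probe set had signals of 739 to 1504 with a median of 1157 at 0 h, 538 to 1614 with a median of 1051 at 1 h, and 618 to 780 with a median of 703 at 4 h. The 0 h and 4 h arrays overlapped by a narrow margin, since the lowest at 0 h lay under the highest at 4 h. The change at 4 h against 0 h was -0.65 ± 0.23 (log2, SE, n = 6 each; limma adjusted p = 0.0391; unadjusted exact permutation p = 0.00649), and it was not called in 8 of 18 fits that left out 1 array (codes 12, 18, 22, 37, 44, 46, 47 or 49; adjusted p 0.0551 to 0.0881), with quantile normalization (adjusted p = 0.0994) or with no filter (adjusted p = 0.0739).

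Both other Socs6 probe sets moved further. For 1435492_at the signal was 425 to 918 at 0 h, 352 to 718 at 1 h and 130 to 283 at 4 h, so that the 4 h arrays lay below all others. It fell by 1.59 at 4 h against 0 h (limma adjusted p = 7.67e-05) and by 1.28 at 4 h against 1 h (adjusted p = 0.000827). The third set, 1452764_at, fell by 0.83 at 4 h against 0 h (adjusted p = 0.00293), with 4 h arrays that did not overlap those of 0 h. Of all genes, by their brightest probe set, 12.7% did not overlap in that direction.

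**Figure D2:**
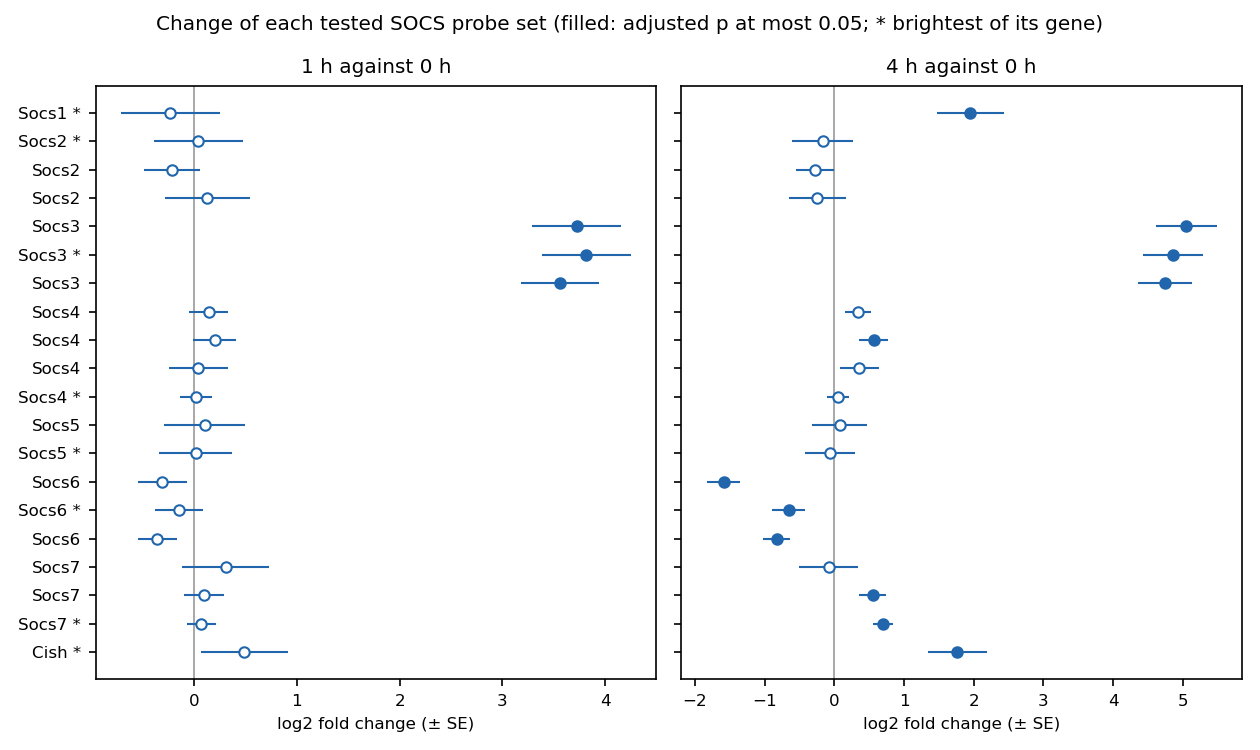
Log2 fold change with its SE of each of the 20 tested SOCS probe sets, at 1 h and at 4 h against 0 h (n = 6 arrays a time); filled points have an adjusted p of at most 0.05 and an asterisk marks the brightest set of a gene. All 3 Socs3 sets are filled at both times, all 3 Socs6 sets lie below 0 at 4 h, and the Socs7 and Socs4 sets of a gene differ in whether they pass.

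Socs2, whose protein limits growth hormone signalling, Socs4 and Socs5, whose proteins are linked to the EGF receptor, were not called in any comparison of times by their brightest probe sets. The log2 fold changes at 4 h against 0 h were -0.17 ± 0.43 for Socs2, 0.05 ± 0.16 for Socs4 and -0.06 ± 0.36 for Socs5. The values at 1 h against 0 h were 0.04, 0.02 and 0.02 with the same errors. With the mean of its tested probe sets in place of the brightest, Socs4 was called higher at 4 h against 0 h (0.33, limma adjusted p = 0.0224). A dim Socs4 probe set, 1421274_at, was called higher at 4 h against 0 h (0.57, limma adjusted p = 0.0439), and the 4 arrays that carried it past the filter were all at 4 h. The mean given above includes this set, so its call rests in part on a set kept through its 4 h arrays.

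The changes were also read within each range of array codes, where 2 arrays stand at each time. Socs3 at 4 h against 0 h gave 4.64 in codes 44 to 54, 5.23 in codes 32 to 37 and 4.72 in codes 12 to 22. Those at 1 h against 0 h were 4.25, 4.64 and 2.55 in the same order, and the last was not called (limma adjusted p = 0.807). The brightest Socs7 set gave 0.57, 0.78 and 0.73 at 4 h against 0 h, and the first was not called (limma adjusted p = 0.0988). Its set 1434834_at gave 0.46, 0.15 and 1.04 in the same order, with no called difference between ranges (adjusted p = 0.519). The dim set 1420766_at gave -0.19, -0.29 and 0.24. With code range as a term in the fit, Socs6 was also called lower at 4 h against 1 h (-0.51, limma adjusted p = 0.0234).

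Cish was the member whose change differed between the ranges. Its signals at 4 h were 508 and 344 in codes 44 to 54, 339 and 258 in codes 32 to 37, and 1958 and 1127 in codes 12 to 22. The change at 4 h against 0 h was 1.54 ± 0.35 in codes 44 to 54, 0.43 ± 0.35 in codes 32 to 37 and 3.33 ± 0.35 in codes 12 to 22 (log2, SE, 2 arrays a time). Between 1 h and 4 h it was 0.98, -0.39 and 3.25. The test of the difference between ranges, limma's moderated F test of the interaction of time and range, gave an adjusted p of 0.0408 at 4 h against 0 h and 0.0114 at 4 h against 1 h.

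No other member passed that test in either comparison, and over all genes 1.13% passed it at 4 h against 0 h and 1.64% at 4 h against 1 h. For Cish at 4 h against 0 h the call was lost in 15 of 18 fits that left out 1 array, with an adjusted p of up to 0.154 (it held without codes 22, 44 or 47), and in 3 of 6 other alternatives, with pseudocount 1 (adjusted p = 0.0556), no filter (0.104) or quantile normalization (0.0536); at 4 h against 1 h it was lost in 1, without the code 14 array (adjusted p = 0.0567). At 1 h against 0 h the test called 0% of genes, with 2.93% at an unadjusted p under 0.05.

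Socs1 gave 2.003 in codes 44 to 54, 0.88 in codes 32 to 37 and 2.98 in codes 12 to 22 at 4 h against 0 h. The difference between ranges was not called (limma adjusted p = 0.642). Socs6 gave -0.77, -0.21 and -0.98 in the same order, also with no called difference (adjusted p = 0.508).

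**Figure D3:**
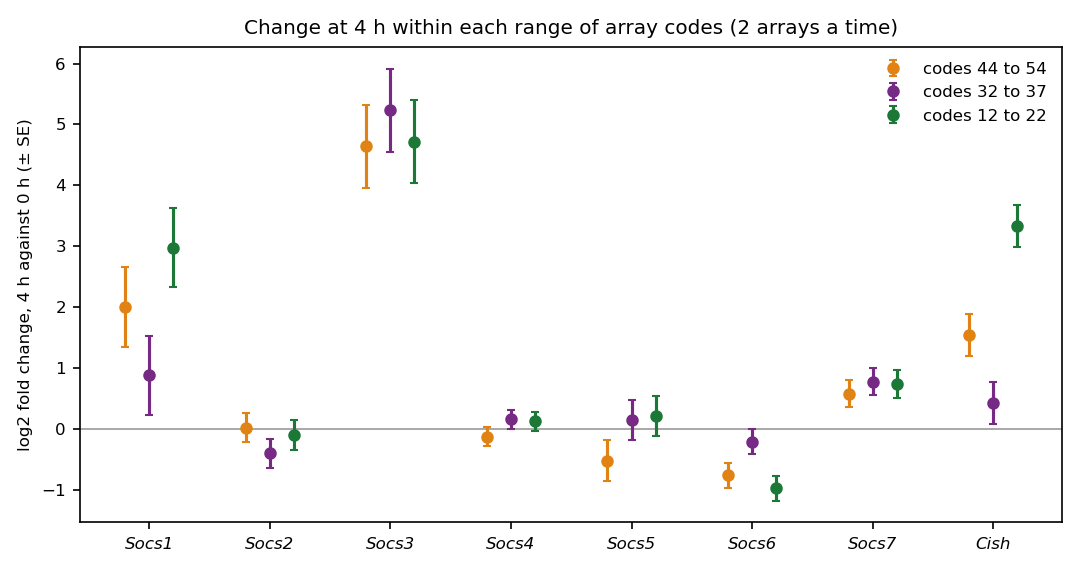
Log2 fold change at 4 h against 0 h with its SE for each SOCS gene within each range of array codes, from a fit of time by range with 2 arrays a time in a range. Socs3 lies between 4.64 and 5.23 in all ranges, whereas Cish spans 0.43 to 3.33.

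Levels averaged over the times differed between the ranges for some members that did not follow time. Socs2 had signals of 223 to 331 with a median of 283 in codes 44 to 54, 95.8 to 195 with a median of 151 in codes 32 to 37, and 65.4 to 82.8 with a median of 69.8 in codes 12 to 22. No array of a range overlapped another range, and the share of all genes that separate by range in this way was not counted. The log2 difference, with time in the fit, was 1.75 ± 0.14 for codes 44 to 54 against 12 to 22, 0.92 ± 0.14 for 32 to 37 against 12 to 22 and 0.83 ± 0.14 for 44 to 54 against 32 to 37 (SE, n = 6 each; all limma adjusted p at most 0.05). On every array of codes 12 to 22 this brightest set lay below that array's own median, so it passed the filter through the other ranges. Its tests against codes 12 to 22 thus rest on ranges in which it was high. Each of its calls held in all 24 alternatives, the fit with no filter among them. The Socs2 probe set 1449109_at gave 1.54, 0.91 and 0.63, each called, while 1442586_at gave 0.03, -0.40 and 0.43, none called.

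Socs5 was also highest in codes 44 to 54, with signals of 699 to 1902 and a median of 1318 there, 608 to 1014 with a median of 763 in codes 32 to 37, and 423 to 749 with a median of 531 in codes 12 to 22. The difference was 1.23 for codes 44 to 54 against 12 to 22 (limma adjusted p = 0.000765) and 0.72 for 44 to 54 against 32 to 37 (adjusted p = 0.0288). The Socs5 ranges overlapped. For Socs4 the signals were 1511 to 1843 with a median of 1720, 1225 to 1498 with a median of 1374 and 1092 to 1312 with a median of 1172 in the same order, with a difference of 0.52 for codes 44 to 54 against 12 to 22 (adjusted p = 0.00063). Another Socs4 probe set, 1421275_s_at, was lower in that comparison (-0.76, adjusted p = 0.0264), so the direction for Socs4 depends on the probe set. By its brightest set Socs6 was lower in codes 32 to 37 than in codes 12 to 22, by a log2 difference of -0.73 (adjusted p = 0.00604). That call was lost in 1 of 24 alternatives (adjusted p = 0.054). The other Socs6 sets, 1435492_at and 1452764_at, each gave -0.33 and were not called (adjusted p = 0.344 and 0.220).

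Against these counts, of all genes 11% were higher and 11.4% lower in codes 44 to 54 than in 12 to 22, where 3 members were higher. In codes 32 to 37 against 12 to 22 the shares were 11.7% and 8.99%, with 1 member higher and 1 lower. In codes 44 to 54 against 32 to 37 they were 9.51% and 11.4%, with 3 members higher. Of these, the calls of Socs4 and Socs5 in codes 44 to 54 against 32 to 37 were each lost in 8 of 18 fits that left out 1 array. For Socs4 these were codes 32, 33, 35, 37, 44, 47, 49 and 54 (adjusted p 0.0583 to 0.09), and for Socs5 the same with 34 in place of 37 (adjusted p 0.0515 to 0.0756).

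Markers of several cell types moved with the ranges. The mean log2 value of the 13 tested macrophage markers was 11.94 to 12.07 in codes 12 to 22. It was 12.15 to 12.47 in codes 32 to 37 and 12.15 to 12.52 in codes 44 to 54. Against codes 12 to 22, 4 of the 13 were higher and 1 lower in codes 32 to 37. In codes 44 to 54 2 were higher and 1 lower, beside the shares of all genes given above. Of 8 stroma markers 7 were tested, without Lum, and all 7 were higher in codes 44 to 54 than in 12 to 22; their summed signal was 21013 to 29147 in codes 44 to 54, 4962 to 10071 in codes 32 to 37 and 2346 to 3197 in codes 12 to 22. Of 12 neutrophil markers 8 were tested, without Ly6g, Mpo, Elane and Cxcr2, and 6 of these were lower in codes 44 to 54 than in 12 to 22, with a summed signal of 1383 to 2950, 1965 to 4210 and 4301 to 7469 in the same order. Of 8 B cell markers 2, Cd79b and Ighm, were tested and both were lower in codes 44 to 54 than in 12 to 22, with summed signals of 58.5 to 308, 204 to 409 and 674 to 1710. The part of these cells in the SOCS differences between ranges was not tested.

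**Figure D4:**
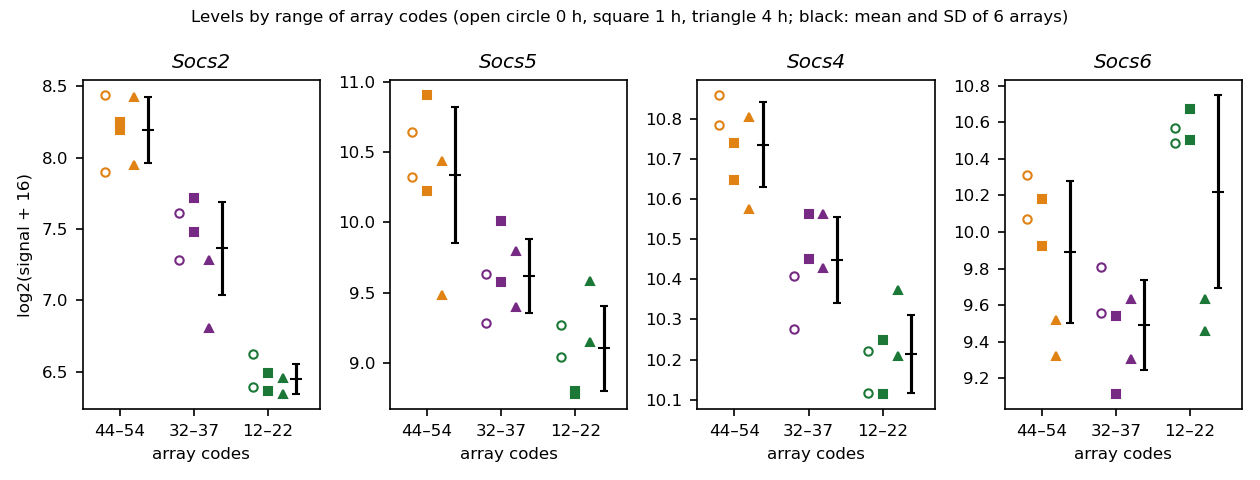
Log2(signal + 16) of the brightest probe set of Socs2, Socs5, Socs4 and Socs6 on each array, by range of array codes; symbols mark the time and black bars the mean and SD of 6 arrays. Socs2 steps down from codes 44 to 54 to codes 12 to 22 with no overlap between ranges, a separation not counted over all genes. Socs6 also falls with time within codes 44 to 54 and 12 to 22.

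Some markers also moved with time. At 4 h against 0 h, 3 of 13 macrophage markers rose and 2 fell, and 1 of 8 neutrophil markers (Csf3r) rose. In the same comparison 1 of 4 tested dendritic cell markers (Itgax) rose and 1 of 2 B cell markers (Cd79b) fell. Beside these counts, 11.5% of all genes rose and 23.9% fell. No tested stroma, T cell or NK cell marker was called. The summed signal of the 4 dendritic cell markers was 235 to 368 at 0 h, 258 to 542 at 1 h and 522 to 802 at 4 h, and that of the 2 B cell markers was 280 to 1696, 146 to 1710 and 58.5 to 679. Their part in the SOCS changes at 4 h was not tested.

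Genes upstream of the family were counted from lists of pathway members. Beside the counts of these lists stand the shares over all genes given above, 0.614% that rose and 0.0341% that fell at 1 h against 0 h, and 11.5% and 23.9% at 4 h against 0 h. Of 23 cytokines that signal through JAK and STAT, 11 were tested. At 1 h against 0 h 1 rose, Il10, a cytokine that restrains inflammation through STAT3, with a log2 fold change of 2.84 ± 0.57 (SE, n = 6 each; limma adjusted p = 0.0196). At 4 h against 0 h 9 rose and 0 fell, with a median over the 11 of 1.71. Of these 9, 4 (Il6, Il12b, Csf2 and Csf3) lay above their array's median on fewer than 4 of the 0 h and 1 h arrays, so they passed the filter through the 4 h group, and their calls and the list's count and median are descriptions. Il6 gave 6.08 ± 0.86, Il12b 3.90 ± 0.88, Il10 3.11 ± 0.57 and Csf2, which encodes GM-CSF, 2.99 ± 0.76.

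Within the ranges, the cytokine changes at 4 h against 0 h also spread. Il6 gave 5.85, 3.74 and 8.66, Il12b 3.46, 1.18 and 7.05, and Csf2, a cytokine that signals through STAT5, 2.66, 0.44 and 5.87, each in codes 44 to 54, 32 to 37 and 12 to 22. Il10 gave 2.93, 4.95 and 1.45, with its highest value in codes 32 to 37. The difference between ranges at 4 h against 0 h was called for Il12b (limma adjusted p = 0.0287) and not for Il6 (0.0829), Csf2 (0.0786) or Il10 (0.179). At 4 h against 1 h it was called for Il6 (limma adjusted p = 0.0087) and Il12b (0.00902) and not for Csf2 (0.111) or Il10 (0.994). There Il6 gave 5.01, 0.17 and 7.83 in the same order of ranges. Since Il6, Il12b and Csf2 passed the filter through the 4 h group, their calls between ranges are descriptions too.

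Of 28 receptors of these cytokines 21 were tested. None was called at 1 h, and at 4 h against 0 h 4 rose (19.0%) and 3 fell (14.3%), against 11.5% and 23.9% of all genes. Lifr, a partner of gp130, fell by 2.44 ± 0.47, and Il6ra, the IL-6 binding chain, fell by 1.90 ± 0.27, both on the log2 scale (SE, n = 6 each). Il15ra rose by 1.54 ± 0.43 and Csf3r, the G-CSF receptor and a target of SOCS3, by 1.40 ± 0.25. The median of the list was 0.05.

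Of 11 Janus kinases and STATs 10 were tested, with 0 called at 1 h and 3 (30%, against 11.5% of all genes) higher at 4 h against 0 h. Jak2 rose by 2.50 ± 0.25 and Stat5a by 1.66 ± 0.19 (limma adjusted p = 1.06e-06 and 4.22e-06), and Tyk2 by 0.55 ± 0.19 (adjusted p = 0.0377). Stat2 also rose at 4 h against 1 h, by 1.19 ± 0.42, and Stat5b fell by 0.51 ± 0.17. The list's median at 4 h against 0 h was 0.42.

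Genes downstream were read from 19 known STAT targets, of which 18 were tested. At 1 h against 0 h 3 rose, Irf1 by 2.08 ± 0.41, Junb by 2.01 ± 0.27 and the kinase gene Pim1 by 1.60 ± 0.23. At 4 h against 0 h 11 rose (61.1%) and 1 fell (5.56%), against 11.5% and 23.9% of all genes, with a median of 1.67. Il1rn, the IL-1 receptor antagonist, gave 4.42 ± 0.49, the chemokine Cxcl10 3.93 ± 0.60, the interferon-induced Gbp2 2.99 ± 0.45 and Irf1 2.44 ± 0.41.

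Other inhibitors of the pathway were counted likewise. Of 11 tested, 0 were called at 1 h, and 3 rose (27.3%) and 4 fell (36.4%) at 4 h against 0 h, against 11.5% and 23.9% of all genes, with a median of 0.10. Usp18, which restrains the interferon receptor, rose by 2.01 ± 0.36 and the phosphatase gene Ptpn1 by 0.86 ± 0.23, while Pias3, an inhibitor of STAT3, fell by 1.00 ± 0.14 and the adaptor gene Sh2b3 fell by 0.95 ± 0.12.

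SOCS proteins share the SOCS box with other proteins and act through its ligase partners. Of 8 ubiquitin ligase partners, 1 (12.5%, against 11.5% of all genes) rose at 4 h against 0 h, the conjugating enzyme gene Ube2f, by 1.38 ± 0.12, and Elob and Eloc, which bind the box, were not called in that comparison. Eloc rose by 0.41 ± 0.14 at 4 h against 1 h. Of 26 other SOCS box proteins 14 were tested, and 2 rose (14.3%) and 5 fell (35.7%) at 4 h against 0 h, against 11.5% and 23.9% of all genes, with a median of -0.21. Spsb2 had a log2 fold change of -1.26 ± 0.14, Asb13 of -1.13 ± 0.22, Asb4 of -1.08 ± 0.38 and Rab40c of -0.99 ± 0.21.

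Of 12 SOCS targets outside JAK and STAT 9 were tested, with 0 called at 1 h and 4 higher (44.4%) and 2 lower (22.2%) at 4 h against 0 h, against 11.5% and 23.9% of all genes. Nck1, an adaptor bound by SOCS7, rose by 1.87 ± 0.28 and Rela, an NF-kB subunit, by 1.13 ± 0.16. Irs2, an insulin receptor substrate, had a log2 fold change of 1.33 ± 0.39 and passed the filter through its 4 h arrays. Insr, the insulin receptor gene, fell by 0.91 ± 0.13.

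The genes whose values across the 18 arrays were most like those of each called member, among 11720 genes, were listed by Pearson's r as a description, since all points share the arrays, their times and their ranges. For Socs3 they were Tnf (0.986), Tnfaip3 (0.982) and Cxcl1 (0.979). For Cish they were Prkcd (0.940), Fam102b (0.935) and Il6 (0.933). Socs1 was most like Mrpl3 (0.921), Smad2 (0.909) and Pim2 (0.901), Socs6 most like Myo5a (0.951), Tlk1 (0.950) and Elf1 (0.932), and Socs7 most like Ppm1b (0.923), Kmt5a (0.922) and Mmadhc (0.912).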

How the data were processed

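The deposited values are linear signal intensities, 1 per probe set and array; per the submitters' processing notes the authors used MAS5 and GCOS, with versions and settings not given in the sources used here. Each array's mean between its 2nd and 98th percentile was 500.003 or 500.004, and medians were 74.7 to 108.1. The platform annotation gives a single symbol to 34958 of 45101 probe sets (34754 found in RefSeq's GRCm38.p6 gene table), several to 932 and none to 9211; 64 are controls. All columns were mapped by label, and replicate numbers follow accession order. Values were taken as log2(signal + 16). A probe set was kept if above its own array's median on at least 4 of 18 arrays, leaving 25775 (57.2%) for 11721 genes. R 4.3.3 with limma 3.58.1 fitted a mean per time, or time with code range; the fit was tested on simulated data. The members and lists were chosen with earlier results of these data known. Named genes are the members, per list and comparison up to 4 called genes with the largest change, or the 2 with the highest mean where none was called, and the 3 genes most like each called member. Of the 24 exact permutation tests, unadjusted p-values are given. Alternatives were other pseudocounts (1, 64), no filter, a filter of 12 arrays, quantile normalization, range as a block, the mean of a gene's probe sets, each range alone and each array left out.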

Additional observations from a re-analysis of the deposited data

Results flagged for a closer look

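In 60 groups of 6 arrays (20 tested probe sets at 3 times), 5 had a lowest array whose ratio exceeded Dixon's 95% critical value. The ratio is the gap to the next array divided by the group's range. Gap and range were taken on the log2 values used in the fits, while the values printed here are signals. Chance gives about 1 in 20 groups. The Socs3 set 1455899_x_at at 1 h had 1857 on the array with code 14, against 9376 for the next (ratio 0.741). Socs1 at 0 h had 6.62 on the code 32 array, against 31.2 (0.645). The Socs2 set 1442586_at at 1 h had 20.8 on the code 36 array, against 76.2 (0.751). The dim Socs7 set 1420766_at had 11.3 on the code 18 array at 0 h, against 65.5 (0.712), and 9.16 on the code 51 array at 1 h, against 76.1 (0.677). No array holds more than 1 of these values.

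The change of Cish differed between ranges of array codes, with an adjusted p of 0.0408 at 4 h against 0 h and 0.0114 at 4 h against 1 h in limma's test of the interaction. The call at 4 h against 0 h was lost in 15 of 18 fits that left out 1 array (adjusted p of up to 0.154) and in 3 of 6 other alternatives (up to 0.104). The call at 4 h against 1 h was lost in 1 of the 18, without the code 14 array (0.0567), and in 0 of the 6.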

How the results depend on the processing

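No paired analysis was run, because the labels do not say which arrays of different times belong together. Codes 12, 14 and 16 stand at 0 h, 1 h and 4 h in that order. So do 18, 20 and 22, then 32, 33 and 34, and 35, 36 and 37. Codes 44 to 54 do not run in this order. Pairing by code was not tested, and the code range as a block stands in its place. Quantile normalization moved the median change of all genes at 4 h against 0 h to -0.07, against -0.19 as deposited. For the 17 SOCS comparisons past the threshold, 390 of 442 alternative values kept direction and call, 49 lost the call and 3 turned round; of 800 values for the 31 other comparisons, 15 gained a call. For other named genes past the threshold, 1586 of 1726 values kept both, 138 lost the call (66 of them within a range, with 2 arrays a time) and 2 turned round. The values that turned round were Socs4 with the mean of its probe sets, -0.11 for codes 44 to 54 against 12 to 22 and -0.021 for 44 to 54 against 32 to 37, and, at 4 h against 1 h, Cish (-0.39) and Cxcl10 (-0.18) within codes 32 to 37 and Ptpn1 (-0.032) within codes 12 to 22. The cause was not tested. Changed SOCS genes numbered 1 at 1 h against 0 h in every left-out fit, 4 to 5 at 4 h against 0 h and 2 to 4 at 4 h against 1 h. Within codes 44 to 54 they numbered 3 at 4 h against 0 h and 1 at 4 h against 1 h, within codes 32 to 37 2 and 0, and within codes 12 to 22 0 at 1 h against 0 h and 5 at 4 h against 1 h. SOCS genes whose 4 h change against 0 h differed between ranges numbered 0 with pseudocount 1, no filter or quantile normalization, and 0 to 1 in left-out fits. SOCS genes that differed in level numbered 1 without a filter and 1 to 4 in left-out fits for codes 44 to 54 against 32 to 37, 2 to 4 in left-out fits for 32 to 37 against 12 to 22, with 4 reached without the code 14 array, and 3 in every left-out fit for 44 to 54 against 12 to 22. Socs1 and some other dim genes did not pass the filter of 12 arrays and have no value there. Dim probe sets limit what was measured: 4 of 24 SOCS probe sets did not pass the filter.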
